A study of Mus musculus with 48 samples.

Results

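A group of 7 hepatic uptake carriers was examined: Slco1a1, Slco1a4, Slco1b2, Slco2a1, Slco2b1, Slc22a5 and Slc22a7. They were chosen by gene symbol, with earlier results of these data known, so the choice was not blind to their response. All 7 of 7 were listed among the 11275 genes of the table of frozen (FROZ) liver, and 4 of 7 among the 6673 genes of the table of formalin-fixed paraffin-embedded (FFPE) liver, where Slco1a1, Slco1a4 and Slc22a5 are not listed. Paired FROZ and FFPE livers of 24 male B6C3F1 mice were measured by TempO-Seq, an assay in which a pair of oligos that meet on a transcript is ligated, amplified and counted. The mice were 4 weeks old and drank water with dichloroacetic acid (DCA) for 6 days, with 6 vehicle controls (0 mg/kg-d) and groups of 6 mice at 198, at 313 and at 427 mg/kg-d. Each mouse gave 1 FROZ library from mixed lobes and 1 FFPE library from the left lateral and right medial lobes, 48 libraries in all. FROZ libraries used RNA isolated earlier, and FFPE libraries used lysed sections, taken later, with no RNA isolation. Preservation, lobe, type of input and time in storage thus cannot be told apart. B6C3F1 is a hybrid of C57BL/6 and C3H, 2 inbred strains, and the tissue was archival.

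The Slco genes encode organic anion transporting polypeptides, membrane carriers that bring bile acids, steroid conjugates, thyroid hormones and many drugs into the cell without using sodium. The Slc22a genes encode carriers of organic cations, anions and zwitterions, among them carnitine, which is needed to move long-chain fatty acids into mitochondria. In liver many of these carriers sit on the sinusoidal face of the hepatocyte, where they take compounds from blood, and several are known to differ between the sexes and to answer to nuclear receptors and growth hormone. DCA is a by-product of water chlorination that blocks pyruvate dehydrogenase kinase and is a liver carcinogen in mice.

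FROZ libraries held 6.69 to 9.84 M reads on listed genes and FFPE libraries 1.83 to 6.02 M (in units of 1000000 reads), recovered from the steps of the low values. FFPE libraries at 198 and 313 mg/kg-d stood apart, with a median of 991 and 636.5 listed genes at 0 compared with 289 in FFPE controls and 143 at 427 mg/kg-d. In FROZ the group medians of genes at 0 lay between 31 and 42.5. Of the hepatocyte markers that define the tissue, such as Alb, Apoa1 and Ttr, 11 of 12 were listed in FROZ, with summed levels of 33210 to 42620 CPM (counts per 1000000 reads of the table) in controls. Across all FROZ genes the median log2 fold change over controls was 0.07, 0.11 and 0.10 at 198, 313 and 427 mg/kg-d, and scaling libraries by the median ratio instead moved this median by -0.11 at both higher doses. In the tests below, a gene was called at a false discovery rate (FDR) under 0.05 by limma with Benjamini-Hochberg adjustment over all genes of the table, and was a differentially expressed gene (DEG) if its fold change also exceeded 2. In FROZ 1.56% of genes were called at 198 mg/kg-d, 26.7% at 313 and 30.1% at 427 mg/kg-d. Shares of all genes called, here and below, are of this main fit and were not counted under other settings.

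In FROZ liver 6 of the 7 carriers were called at 427 mg/kg-d, 5 lower and 1 higher, and 5 of them were DEGs. Slco1a1, Slco1a4, Slco2a1, Slco2b1 and Slc22a7 fell, Slc22a5 rose, and Slco1b2 was not called. Of all genes 7.33% were called lower at this dose and 3.5% were DEGs. At 313 mg/kg-d 5 of 7 were called, 4 lower and 1 higher, and 2 of them were DEGs, beside 2.31% of all genes. None of the 7 was called at 198 mg/kg-d. There 1 had an unadjusted p under 0.05, beside 1924 of all 11275 genes, and 1 an exact rank sum p under 0.05. Slco1a4 was the gene in both. Without mouse 76 or 78, or under median-ratio scaling, 4 were DEGs at 313 mg/kg-d. The treated and control mice did not overlap for 3 of 7 genes at 313 mg/kg-d (11.5% of all genes) and for 5 of 7 at 427 mg/kg-d (14.7% of all genes). The median log2 fold change of the 7 genes was -0.04 at 198, -0.40 at 313 and -1.17 at 427 mg/kg-d. With a slope per 100 mg/kg-d fitted through all 24 FROZ libraries, 6 of 7 were called, beside 32.2% of all genes, and again Slco1b2 was not.

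**Figure D1:**
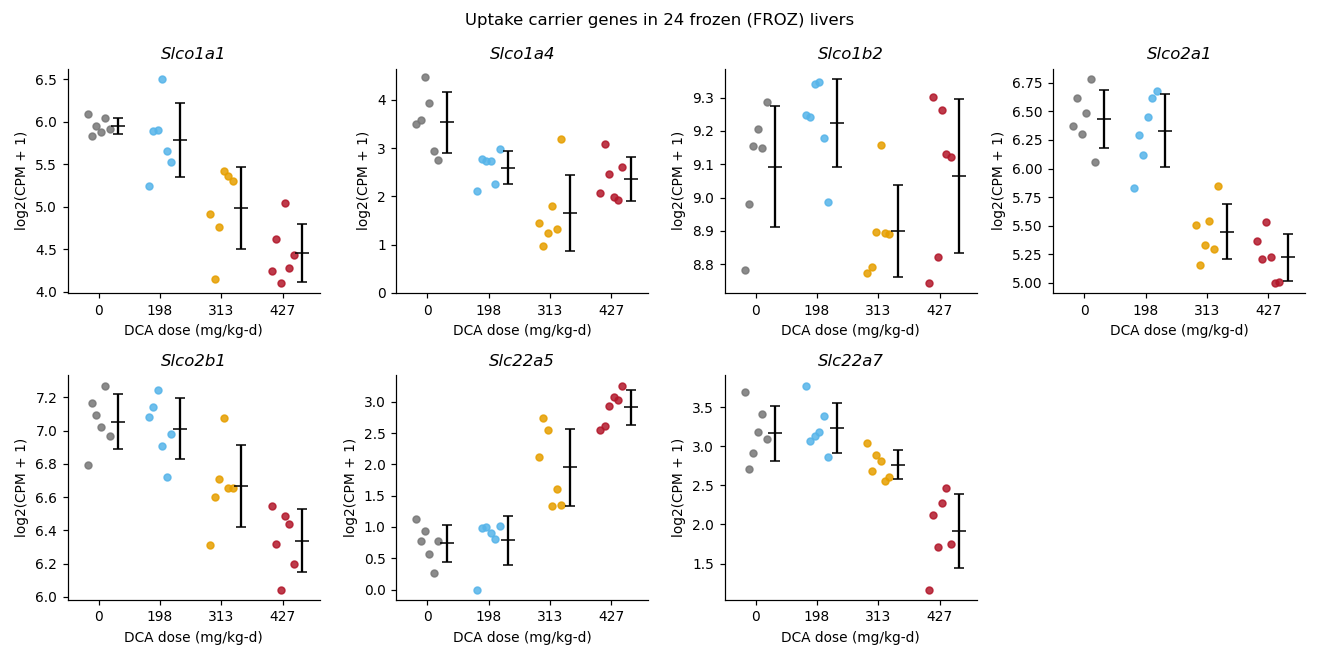
Level of each of the 7 carriers on the log2(CPM + 1) scale (vertical axis, a separate range in each panel) in each of 24 FROZ libraries against DCA dose in mg/kg-d (horizontal axis). Points are single mice, bars are the mean ± SD of 6. Slco1a1, Slco2a1, Slco2b1 and Slc22a7 at 427 mg/kg-d sit below all controls, Slc22a5 sits above all controls, and Slco1b2 overlaps.

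**Figure D2:**
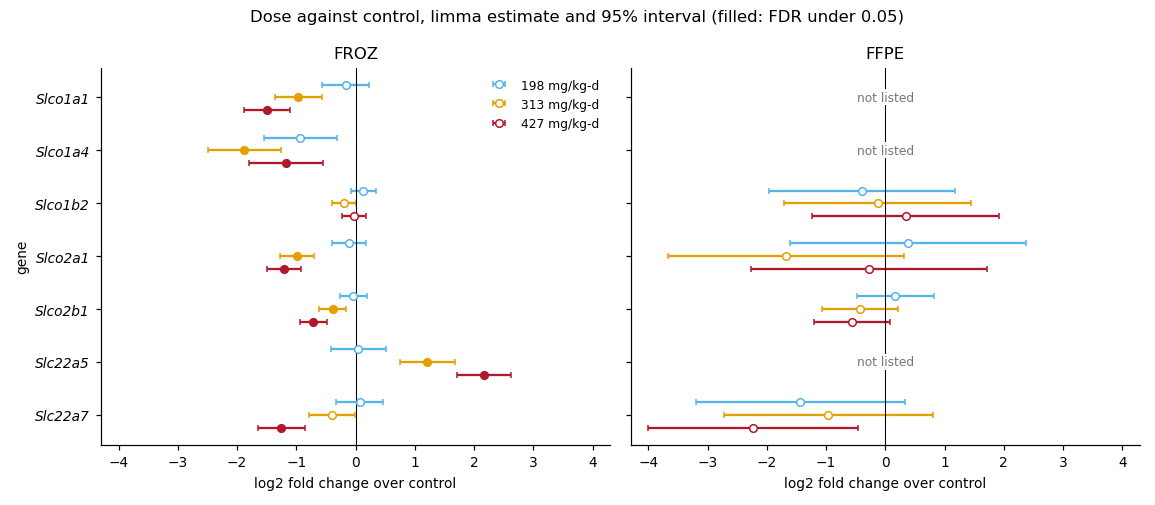
Log2 fold change over controls (horizontal axis) of each carrier (vertical axis) at 198, 313 and 427 mg/kg-d, in FROZ on the left and FFPE on the right, with 95% intervals from limma. Filled points passed an FDR of 0.05. The FFPE intervals are wider, no FFPE point is filled, and 3 genes are not listed in FFPE.

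Slco1a1, Slco1a4 and Slco1b2 lie near each other on mouse chromosome 6 (GRCm38, the build called mm10, GENCODE vM21), and genes between them were not looked for. Slco1b2 spans 141629518 to 141686646 on the plus strand, Slco1a4 spans 141805440 to 141856199 on the minus strand, and Slco1a1 spans 141907282 to 141946962 on the minus strand. Slco1a6 and Slco1a5 follow, and of these Slco1a5 was listed in FROZ and Slco1a6 was not. Few of the transcript letters in this cluster are shared: 1.64% of the 50-base windows of Slco1a1 and 1.61% of those of Slco1a4 occur in transcripts of another gene, and none of those of Slco1b2 does. The reference sequence of the 250 bases before the RefSeq start of these 3 genes (GRCm38.p6, C57BL/6J) is given because these neighbours include genes that were called and a gene that was not, and capitals mark every match to 4 motifs searched on both strands: TTCNNNGAA (the site of STAT factors), GTTAAT (a core of the hepatocyte nuclear factor 1 site), AGGTCA (the repeat unit of nuclear receptor sites) and CACGTG (an E-box).
Slco1a1, minus strand, chr6:141946963-141947212: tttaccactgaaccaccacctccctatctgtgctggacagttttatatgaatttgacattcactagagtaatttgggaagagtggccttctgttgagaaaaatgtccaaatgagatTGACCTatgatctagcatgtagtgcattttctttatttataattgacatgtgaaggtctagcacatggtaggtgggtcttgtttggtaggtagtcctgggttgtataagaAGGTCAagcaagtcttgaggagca
Slco1a4, minus strand, chr6:141856221-141856470: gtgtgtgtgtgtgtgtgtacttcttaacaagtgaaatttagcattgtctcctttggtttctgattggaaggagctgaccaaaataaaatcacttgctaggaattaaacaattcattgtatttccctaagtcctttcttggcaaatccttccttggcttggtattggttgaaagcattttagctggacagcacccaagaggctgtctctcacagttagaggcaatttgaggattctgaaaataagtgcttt
Slco1b2, plus strand, chr6:141629268-141629517: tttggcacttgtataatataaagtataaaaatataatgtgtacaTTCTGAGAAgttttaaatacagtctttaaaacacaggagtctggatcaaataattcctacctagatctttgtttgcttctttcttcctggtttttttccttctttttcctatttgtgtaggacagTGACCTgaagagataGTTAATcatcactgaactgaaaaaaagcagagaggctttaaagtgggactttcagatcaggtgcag
Slco1a1 holds AGGTCA at 24 bases before the start and its reverse complement at 134 bases. Slco1b2 holds TTCTGAGAA at 206 bases, TGACCT at 81 bases and GTTAAT at 66 bases before the start, with no overlap between them. In Slco1a4 none of these letters was found, but the bases that follow its RefSeq start did not match its GENCODE transcripts, so that start is less certain. Of 32851 RefSeq promoters of the same length, 7.02% hold TTCNNNGAA, 6.43% GTTAAT, 14.0% AGGTCA and 6.02% CACGTG, so single matches of this kind are common. The window of each of the 3 genes has no CG pair, compared with a median of 6 over all promoters.

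Slco1a1 encodes a male-predominant carrier of bile acids and steroid conjugates, formerly Oatp1a1, and fell at both higher doses. In FROZ controls its level ran from 56.1 to 67.1 CPM with a median of 59.9 CPM. At 198 mg/kg-d the median was 53.9 CPM and the range, 36.7 to 89.7 CPM, enclosed that of the controls. The range was 16.8 to 41.7 CPM (median 33.9) at 313 mg/kg-d and 16.2 to 32.1 CPM (median 19.5) at 427 mg/kg-d. All 6 mice at each of the 2 higher doses thus lay below the lowest control. The mean CPM at 427 mg/kg-d was 35.2% of the control mean. On the log2 scale the change was -0.96 ± 0.19 (SE, FDR = 4.84e-04) at 313 mg/kg-d and -1.497 ± 0.19 (FDR = 1.06e-06) at 427 mg/kg-d, and the step between these doses was -0.53 with an FDR of 0.132. That step was called without mouse 74 (-0.70, FDR = 0.0321). 

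Slco1a4, formerly Oatp1a4, carries bile acids, cardiac glycosides and other amphipathic compounds, and fell furthest at the middle dose. FROZ controls spread from 5.76 to 21.1 CPM (median 10.6), the widest relative spread of the Slco genes in controls. The medians were 5.65 CPM at 198, 1.60 at 313 and 3.85 at 427 mg/kg-d. The 6 libraries at 313 mg/kg-d held 7 to 62 reads of this gene, and mouse 78, with 62 reads and 8.07 CPM, was inside the control range while the other 5 lay below it. The level at 427 mg/kg-d ran from 2.80 to 7.52 CPM and overlapped controls in 1 of 6 mice. Slco1a4 thus fell by 1.88 ± 0.30 on the log2 scale at 313 mg/kg-d (FDR = 4.17e-05) and by 1.17 ± 0.30 at 427 mg/kg-d (FDR = 0.00387). Mean CPM was 23.2% of the control mean at 313 and 37.8% at 427 mg/kg-d, and the rise between these doses, 0.70 ± 0.30, was not called (FDR = 0.217). Without mouse 78 this rise was 1.009 and was called (FDR = 0.0307). At 198 mg/kg-d the change was -0.94 with a 95% interval of -1.55 to -0.32 and an FDR of 0.102, which became 0.0426 without mouse 78 and ranged from 0.0426 to 0.203 over all settings tried. The exact two-sided rank sum permutation test gave p = 0.0152 for 6 against 6 mice.

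Slco1b2, the main liver-specific organic anion transporting polypeptide of mice, formerly Oatp1b2, was not called against controls at any dose. Its FROZ median was 568 CPM in controls, 606 CPM at 198, 474 CPM at 313 and 558 CPM at 427 mg/kg-d. Every dose overlapped the controls, which ran from 440 to 623 CPM. The log2 fold change at 427 mg/kg-d was -0.03 with a 95% interval of -0.23 to 0.18 (FDR = 0.865). This interval leaves out a change of the size measured in Slco1a1 or Slco1a4 at that dose. It was -0.19 at 313 mg/kg-d with an interval of -0.40 to 0.01 (FDR = 0.165). Under median-ratio scaling that value was -0.33 and was called (FDR = 0.0213), in a range of 0.0213 to 0.305 over the settings tried.

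Slco2a1 spans 102988712 to 103096002 on the plus strand of chromosome 9 and encodes the prostaglandin transporter, which brings prostaglandins into cells before they are oxidized. In mice it is also known from endothelium. Controls ran from 65.7 to 109 CPM (median 85.4) and mice at 198 mg/kg-d from 55.8 to 101 CPM (median 82.0). The ranges were 34.7 to 56.7 CPM (median 41.9) at 313 and 31.1 to 45.3 CPM (median 36.2) at 427 mg/kg-d. No mouse at the 2 higher doses reached the lowest control. Most of this fall was present at 313 mg/kg-d: the change over controls was -0.99 ± 0.14 (FDR = 8.03e-06) there and -1.21 ± 0.14 (FDR = 1.75e-07) at 427 mg/kg-d, and the step between them was -0.22 (FDR = 0.416). The probe of this gene is on the study's list of attenuated probes, so its level is not set beside that of other genes. Sinusoidal endothelial markers were all listed in FROZ (14 of 14). At 427 mg/kg-d 1 of 14, Stab2, was called lower (-0.66), beside 7.33% of all genes. Under median-ratio scaling 5 of these markers were called lower and 0 higher, and the share of all genes was not counted there. Their summed level was 590 to 689 CPM in controls and 517 to 621 CPM at 427 mg/kg-d, ranges that overlap. In bulk liver, fewer cells of a type and less RNA per cell cannot be told apart.

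Slco2b1 spans 99657804 to 99711340 on the minus strand of chromosome 7 and encodes a carrier of steroid sulfates and many drugs that is found in several tissues. Its fall was the mildest of the 5. FROZ controls ran from 110 to 153 CPM (median 132), and mice at 198 mg/kg-d had a median of 130 CPM. At 313 mg/kg-d the range was 78.3 to 134 CPM (median 99.9), and 5 of 6 mice were below every control. The range at 427 mg/kg-d was 65.0 to 92.3 CPM (median 82.3), below every control in 6 of 6 mice. Slco2b1 fell by 0.38 ± 0.11 on the log2 scale at 313 (FDR = 0.0106) and by 0.71 ± 0.11 at 427 mg/kg-d (FDR = 1.42e-05), and the mean CPM at the top dose was 60.8% of the control mean, so it was called without being a DEG.

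Slc22a7, formerly Oat2, lies on the minus strand of chromosome 17 from 46432183 to 46438457 and encodes a carrier of organic anions and nucleotide-related compounds such as cyclic GMP. FROZ controls ran from 5.53 to 12.02 CPM (median 7.80). The median was 7.93 CPM at 198 mg/kg-d and 5.74 CPM at 313 mg/kg-d, where 3 of 6 mice were below every control. It was 2.86 CPM at 427 mg/kg-d, with a range of 1.24 to 4.53 CPM that stands for 11 to 34 reads a library. The fall came late: 198 and 313 mg/kg-d were not called (FDR = 0.904 and 0.122), and at 427 mg/kg-d the change was -1.25 ± 0.19 (FDR = 1.21e-05), to 35.7% of the control mean, beside 35.2% for Slco1a1. The step from 313 to 427 mg/kg-d was itself called (-0.85 ± 0.19, FDR = 0.0135). The value at 313 mg/kg-d was -0.40, and under median-ratio scaling it was -0.53 and was called (FDR = 0.0431), in a range of 0.0431 to 0.283 over the settings tried. The exact rank sum permutation test gave p = 0.0260 there.

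Slc22a5 was the carrier that rose. It encodes Octn2, the sodium-dependent high-affinity carnitine carrier of the plasma membrane, and spans 53864542 to 53891660 on the minus strand of chromosome 11, beside Slc22a21 and Slc22a4. Its 250 bases before the RefSeq start are given beside those of the Slco1 genes. None of the 4 motifs was found in them, as in Slco1a4, 73.6% of the letters are G or C (median of all promoters 52.4%) and they hold 30 CG pairs. The same stretch of Slco2a1, a gene that fell, has 63.2% G or C and 12 CG pairs. The bases that follow this RefSeq start of Slc22a5 did not match its GENCODE transcripts, so the start is less certain.
Slc22a5, minus strand, chr11:53891704-53891953: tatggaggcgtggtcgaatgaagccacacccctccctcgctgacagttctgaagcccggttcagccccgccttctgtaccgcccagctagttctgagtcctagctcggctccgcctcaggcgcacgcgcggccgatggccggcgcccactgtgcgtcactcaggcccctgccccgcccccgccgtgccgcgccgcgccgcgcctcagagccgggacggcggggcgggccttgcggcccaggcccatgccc
In FROZ controls Slc22a5 was near the lower limit of the assay, at 0.203 to 1.17 CPM, or 2 to 10 reads a library. At 198 mg/kg-d 1 library, that of mouse 49, was listed at 0 reads (which allows up to 3 reads, 0.47 on the log2 scale), and the other 5 had up to 1.03 CPM. The range was 1.51 to 5.69 CPM (11 to 42 reads) at 313 mg/kg-d and 4.83 to 8.57 CPM (43 to 69 reads) at 427 mg/kg-d. Every mouse at the 2 higher doses was above the highest control, and the ranges at 313 and 427 mg/kg-d overlapped. The mean CPM was 4.54 times the control mean at 313 and 9.49 times at 427 mg/kg-d. On the log2(CPM + 1) scale, which understates changes of low genes, the rise was 1.21 ± 0.22 (FDR = 2.23e-04) and 2.17 ± 0.22 (FDR = 3.13e-08), and the step between these doses was 0.96 ± 0.22 (FDR = 0.0166). With an offset of 0.0001 CPM in place of 1 CPM the rise at 427 mg/kg-d was 3.41 and was not called (FDR = 0.0741, in a range of 2.15e-09 to 0.0741 over the settings tried), and at 313 mg/kg-d it was 2.17 with an FDR of 0.280 (range 8.66e-05 to 0.280). Of the 50-base windows of its transcripts 26.3% occur in another gene, the gene with the most being Slc22a21, which was not listed in FROZ, so reads of the pair may not be separable.

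More of the carriers were called in the step from the lowest to the middle dose than in the next step. From 198 to 313 mg/kg-d 6 of 7 were called, beside 11.7% of all genes, and Slc22a7 was not (-0.47, FDR = 0.111). Among these 6, Slco1b2 fell by 0.32 (FDR = 0.0358). The calls of Slco1a4, Slco1b2 and Slco2b1 in this step were near the threshold, and leaving out single mice brought the count from 6 down to 3, without mouse 50, 51, 73, 74, 75 or 77. From 313 to 427 mg/kg-d 2 of 7 were called, Slc22a5 up and Slc22a7 down, beside 3.07% of all genes.

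Other organic ion carriers, taken by symbol (Slco, Slc22a, Slc10a and Slc47a genes outside the 7), were 17 in FROZ. Among them 3 were called higher and 5 lower at 427 mg/kg-d and 9 were not called, beside 22.7% of all genes called higher and 7.33% lower, with a median log2 fold change of 0.12 (0.10 over all genes). There were 4 higher and 4 lower calls at 313 mg/kg-d, beside 20.5% of all genes called higher and 6.15% lower. At 198 mg/kg-d none was called, beside 1.56% of all genes. The DEGs among them were Slc22a28, Slc22a27, Slc10a2 and Slco1a5. Slc22a28 and Slc22a27 belong to a group of organic anion carriers on chromosome 19 whose transcripts share much sequence (53.9% and 29.9% of 50-base windows occur in another gene), so their values are uncertain as to the copy. On the log2(CPM + 1) scale the controls had 6.23 ± 0.37 of Slc22a28 (SD, n = 6) and the mice at 427 mg/kg-d 3.64 ± 0.50, a change of -2.59 ± 0.24 (SE, FDR = 6.70e-09). Slc22a27, a gene known as female-predominant, rose from 1.24 ± 0.33 to 4.21 ± 0.90, by 2.97 ± 0.36 (FDR = 5.15e-07). Slc10a2, the apical sodium-dependent bile acid transporter, fell from 6.84 ± 0.28 to 5.50 ± 0.36, by 1.34 ± 0.20 (FDR = 1.21e-05). Slco1a5, at the far side of the chromosome 6 cluster, fell from 2.66 ± 0.09 to 1.55 ± 0.24, by 1.12 ± 0.15 (FDR = 2.07e-06). Of the listed Slco1 genes, Slco1a1, Slco1a4 and Slco1a5 were therefore called lower at 427 mg/kg-d, and Slco1b2 was not. Slc10a1, named here after its values were seen, encodes the main sodium-dependent bile acid carrier of the hepatocyte and was not called (0.28, FDR = 0.101), and nor was Slc22a4, the neighbour of Slc22a5 (-0.27, FDR = 0.215).

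**Figure D3:**
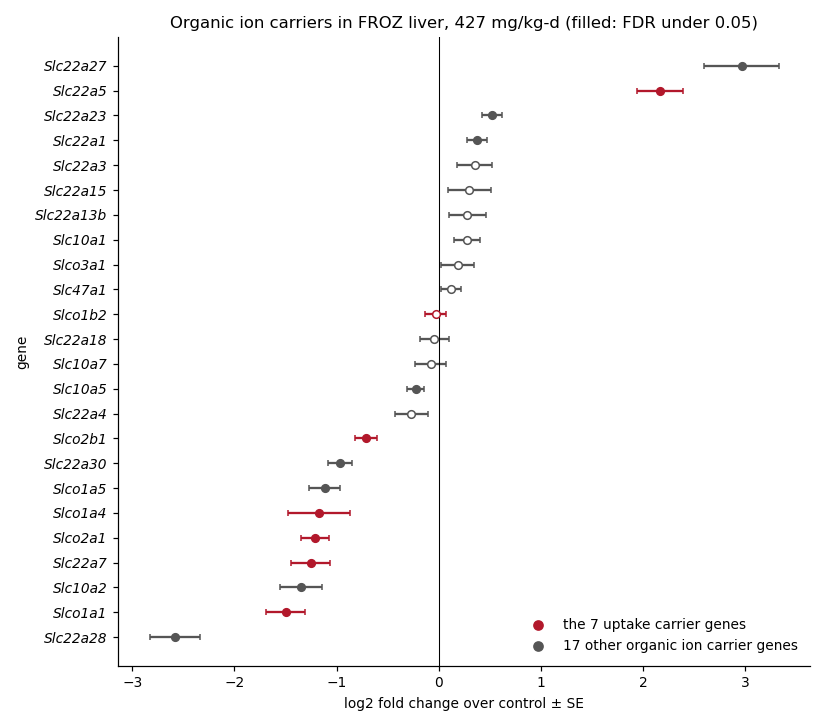
Log2 fold change over controls at 427 mg/kg-d in FROZ liver (horizontal axis, limma estimate ± SE) of the 7 uptake carriers (red) and 17 other organic ion carriers (grey), 1 gene to a line. Filled points passed an FDR of 0.05. Slc22a5 and Slc22a27 stand at the right, with 2.17 and 2.97, and Slc22a28 at the left with -2.59.

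Of 13 genes that handle carnitine beside Slc22a5, 11 were listed, and 7 were called higher and none lower at 427 mg/kg-d, beside 22.7% of all genes called higher, with a median log2 fold change of 0.65 (0.10 over all genes). Under median-ratio scaling 6 were called higher, with no background counted. Crat, which joins acetyl groups to carnitine, rose by 2.63 ± 0.24 (FDR = 3.53e-09). Cpt2, which returns acyl groups from carnitine to coenzyme A in mitochondria, rose by 1.41 ± 0.12 (FDR = 1.17e-09), and Slc25a20, the carnitine-acylcarnitine exchanger of the inner mitochondrial membrane, by 1.29 ± 0.16 (FDR = 8.48e-07). Again 7 were called higher at 313 mg/kg-d, beside 20.5% of all genes, and at 198 mg/kg-d none was called.

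Of the genes that make, sense or break down prostaglandins, the cargo of Slco2a1, 11 of 20 were listed, and 2 were called higher and 1 lower at 427 mg/kg-d, with a median of 0.11. These 3 of 11 are near the 30.1% of all genes called at this dose, so the list does not stand out. The prostaglandin E receptor gene Ptger2 fell by 0.65 (FDR = 2.03e-04), Cbr1, a carbonyl reductase that can act on prostaglandin E, rose by 0.68 (FDR = 3.86e-04), and Ptgr1, a reductase of oxidized prostaglandins, rose by 0.51 (FDR = 0.0322). Under median-ratio scaling the counts were 1 higher and 2 lower, with no background counted.

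Genes of factors known to control uptake carriers were 22 listed of 23. Of these, 6 were called higher and 2 lower at 427 mg/kg-d (median 0.06, beside 0.10 over all genes), and under median-ratio scaling 4 were called higher and 2 lower. In the main fit both counts are near the background of 22.7% of all genes called higher and 7.33% called lower. The background under median-ratio scaling was not counted, and the values of single genes are given as such. Nr1h4, which encodes the bile acid receptor FXR, rose by 0.97 ± 0.08 (FDR = 1.57e-09). Nfe2l2, which encodes the oxidant response factor NRF2, rose by 1.54 ± 0.16 (FDR = 3.10e-08), and Stat5b, which encodes the growth hormone effector of liver, fell by 0.65 ± 0.14 (FDR = 9.09e-04). Levels of these transcripts say nothing of the activity of the factors. Of 19 genes known as targets of the xenobiotic receptors PXR and CAR, 10 were called higher and 4 lower at 427 mg/kg-d (median 0.69), beside the same background. The 3 with the lowest p each rose, though the list moved in both directions. They were the glutathione transferase genes Gsta1 (4.78), Gstm1 (1.52) and Gstm3 (1.501), whose products join glutathione to reactive compounds.

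Male-predominant liver genes, the class to which Slco1a1 belongs, were 20 listed of 23. At 427 mg/kg-d 13 were called lower, beside 7.33% of all genes, and 2 higher, with a median of -1.23. The counts at 313 mg/kg-d were 7 lower, beside 6.15% of all genes, and 2 higher. The complement genes C9 and C8a fell by 2.94 ± 0.18 (FDR = 4.92e-12) and 1.29 ± 0.11 (FDR = 9.02e-10), and the glucuronosyltransferase gene Ugt2b38 fell by 3.11 ± 0.27 (FDR = 1.29e-09). The 2 called higher were the urinary protein genes Mup20 and Mup1 (1.65 and 1.10), members of a family of near-identical copies. Of 16 listed of 21 female-predominant genes, 5 were called higher at 427 mg/kg-d, beside 22.7% of all genes (median 0.35). Another 4 were called lower, beside 7.33% of all genes, so the list moved in both directions. The genes named next are those with the lowest p, and each rose. Cyp2a4 rose by 3.84 ± 0.25 (FDR = 1.24e-11) and Cyp2b9 by 4.71 ± 0.39 (FDR = 7.31e-10), and the third with the lowest p was Slc22a27.

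The genes whose FROZ levels followed each called carrier most closely were found by Pearson's r over 24 libraries, among about 5863 genes that averaged 10 CPM or more. These r are the highest of many, contain the effect of dose, and are given as a description. Slco1a1 was most like Ugt2b38 (r = 0.94, Spearman's rho = 0.92), Slc22a28 (0.93) and the complement gene C8b (0.92). For Slco1a4 the closest were Cyp2c54 (0.91), Pon1 (0.86) and Hsd11b1 (0.85), and for Slco2a1 they were Ces2a (0.92), Gm15421 and Klkb1 (both 0.91). Slco2b1 ran with Casd1 (0.89), Slc22a28 (0.88) and Gm15421 (0.87), and Slc22a7 with C8a (0.91), Gsap (0.89) and Snx29 (0.87). The only riser, Slc22a5, was closest to Ppp2r2d (0.95), the peroxisomal thioesterase gene Acot3 (0.95) and Dusp3 (0.94). Acot3 is a known target of the fatty acid receptor PPARA and its log2 fold change over controls was 8.02 at 427 mg/kg-d.

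Markers of other liver cells were read beside these results in FROZ at 427 mg/kg-d, where 7.33% of all genes were called lower and 22.7% higher. Of 10 listed of 12 Kupffer cell markers 6 were called lower, and their summed level was 156 to 228 CPM compared with 244 to 325 CPM in controls, ranges that do not overlap. Marco and Timd4 were not listed. Of the stellate cell markers 2 of 11 listed were called lower, of the bile duct markers 1 of 5 listed was called higher, and none of 7 listed leukocyte markers was called. Hepatocyte markers gave 2 higher and 2 lower calls of 11, with summed levels of 31290 to 36180 CPM at 427 mg/kg-d. Under median-ratio scaling hepatocyte markers gave 0 higher and 5 lower calls, and 7 Kupffer cell and 4 stellate cell markers were called lower. Bile duct markers then gave 1 higher and 1 lower call. The shares of all genes called under that scaling were not counted, so these counts stand without a background. The summed leukocyte markers reached 2364 CPM in 1 control and 2063 CPM in 1 mouse at 313 mg/kg-d, from medians of 106 and 317 CPM. The part of these shifts in the levels of the carriers was not tested.

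The paired FFPE libraries asked whether the same effect could be read in fixed tissue, and no carrier was called there at any dose. Of the 4 listed (Slco1b2, Slco2a1, Slco2b1 and Slc22a7) limma called none at 198, 313 or 427 mg/kg-d, where 0.0599%, 1.08% and 2.41% of all FFPE genes were called. At an unadjusted p under 0.05 the counts were 0, 0 and 1, beside 785, 781 and 581 of all 6673 FFPE genes. The exact rank sum permutation test gave 0, 0 and 2 below that value, and was run on the carriers only. The linear slope on dose called none of the 4, beside 2.17% of FFPE genes. In the slope 2 of the 4 had an unadjusted p under 0.05, beside 611 of all 6673 FFPE genes. With limma's array weights, which give less weight to libraries that differ most from their group, 1 of 4 was called at 427 mg/kg-d and 2 of 4 in the slope. The share of all FFPE genes called with these weights was not counted.

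Slc22a7 was the FFPE carrier with the largest difference. In FFPE controls its level ran from 19.1 to 75.1 CPM (median 45.7). At 427 mg/kg-d 1 library, that of mouse 102, was listed at 0, which allows up to 3 reads, and the others reached up to 22.9 CPM (group median 15.9), with 4 of 6 below every control. The log2 difference was -2.23 with a 95% interval of -3.998 to -0.46 and an FDR of 0.298. Over the settings tried the difference ran from -4.52, with an offset of 0.0001 CPM, to -1.59, without mouse 102 (FDR = 0.742), and the FDR from 0.0194 to 0.742. With array weights it was -2.18 (FDR = 0.0194), and the exact rank sum permutation test gave p = 0.00866. The mean CPM was 27.7% of the FFPE control mean, and in FROZ it was 35.7% of the FROZ control mean.

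Slco2b1 in FFPE ran from 104 to 166 CPM in controls and from 68.2 to 120 CPM at 427 mg/kg-d, where 4 of 6 mice lay below every control. The log2 difference was -0.56 with a 95% interval of -1.21 to 0.08 (FDR = 0.727), and the exact rank sum permutation test gave p = 0.0260. FFPE medians of Slco1b2 were 78.1 CPM in controls and 95.3 CPM at 427 mg/kg-d, and the log2 difference was 0.34 with an interval of -1.23 to 1.92 (FDR = 1.00). For Slco2a1 the FFPE medians were 15.3 and 18.3 CPM, and the difference was -0.28 with an interval of -2.27 to 1.71 (FDR = 1.00). These intervals hold both no change and the fall that Slco2a1 showed in FROZ, so the FFPE libraries could not tell them apart. Without mouse 98 the Slco2a1 difference was 0.05.

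**Figure D4:**
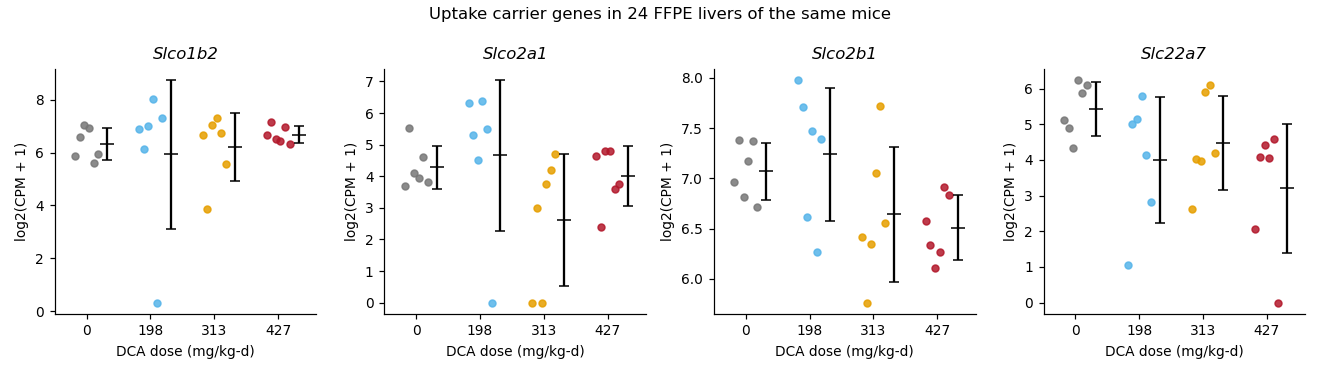
Level of the 4 carriers listed in FFPE on the log2(CPM + 1) scale (vertical axis, a separate range in each panel) in each of 24 FFPE libraries against DCA dose in mg/kg-d (horizontal axis). Points are single mice, bars are the mean ± SD of 6. Single libraries at or near 0 widen the spread: 1 of Slco1b2 and 1 of Slco2a1 at 198 mg/kg-d, 2 of Slco2a1 at 313 mg/kg-d and 1 of Slc22a7 at 427 mg/kg-d.

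Spread within a dose was larger in FFPE. The SD of Slco1b2 on the log2 scale at 198 mg/kg-d was 2.82 in FFPE and 0.13 in FROZ, where mouse 53 had 1 read of this gene in FFPE. Slco2a1 was listed at 0 in FFPE in mouse 54 at 198 mg/kg-d and in mice 73 and 75 at 313 mg/kg-d. FFPE groups at 427 mg/kg-d and in controls were tighter for Slco1b2 (SD of 0.32 and 0.60) and Slco2b1 (0.32 and 0.28). Without the 4 FFPE libraries with over 1000 genes at 0, a setting chosen after the data were seen, again no carrier was called.

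To compare the response between preservations, the FROZ level of each mouse was taken from its FFPE level and doses were compared by limma. None of the 4 carriers was called at any dose, and none had an unadjusted p under 0.05. Of all genes that both preservations list, 0.0303%, 0% and 0.0303% were called at 198, 313 and 427 mg/kg-d. The FFPE response minus the FROZ response at the top dose was 0.94 for Slco2a1 (95% interval -1.04 to 2.91), -0.98 for Slc22a7 (-2.69 to 0.74, and -0.37 without mouse 102), 0.37 for Slco1b2 (-1.45 to 2.19) and 0.15 for Slco2b1 (-0.50 to 0.81). An FDR above 0.05 in this test does not show that the responses are alike, since differences of over 2-fold lie inside the intervals of Slco1b2, Slco2a1 and Slc22a7.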

How the data were processed

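The members were chosen by symbol, and members, lists and tests were set with earlier results of these data known. The RNA was measured by TempO-Seq. The authors aligned reads to mm10 with STAR 2.6 in Partek Flow, counted genes by expectation maximization on RefSeq transcripts, added 0.0001 to all counts, dropped genes whose geometric mean did not exceed 1, scaled to CPM and deposited log2(CPM + 1), separately for FROZ and FFPE, so levels were compared only within a table. Some probes were attenuated in the assay. CPM was recovered here as the antilog minus 1, and reads from the step of low values. In the median library 97.06% (FROZ) and 87.16% (FFPE) of low values came out whole, expectation maximization need not give whole reads, and no count test was run.

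Dose groups came from the sample labels, and FROZ and FFPE libraries were paired by animal number. In 21 of 24 animals the deviations from the dose means correlated best with the same animal's (median r = 0.128 over 4815 genes). Mice 49, 50 and 54, where they did not, were all at 198 mg/kg-d, so the pairing is less sure at that dose. limma 3.58.1 in R 4.3.3, with its trended variance prior, was fitted to all genes and all 24 libraries of a table, with FDR by Benjamini-Hochberg. The FFPE minus FROZ response was fitted to the difference within each animal. Exact rank sum permutation tests were two-sided, with a smallest possible p of 0.00216. The fits were run on simulated data with normal noise and with changes only in genes of higher level. Genes of low level, such as Slc22a5, and FFPE values at 0 were thus not covered. limma p-values rest on the spread between mice within groups, estimated over all dose groups of a fit. A mouse outside the groups compared can thus move a call. A level at 0 allows up to 3 reads, a floor for counting error only, as reads carry no molecular identifiers.

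Named genes were all 7 members, other carriers that were DEGs at any FROZ dose, the 3 genes of each list with the lowest limma p at 427 mg/kg-d, and the 3 genes most like each called member. Alternatives were offsets of 0.1 and 0.0001 CPM, median-ratio scaling, a filter at a mean of 5 CPM, a prior without trend, array weights, fits of only the groups compared, leaving out each mouse, and no block by animal. Promoters and gene positions came from RefSeq (GRCm38.p6, 6 of 7 members matched) and GENCODE vM21.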

Additional observations from a re-analysis of the deposited data

Results flagged for a closer look

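A lowest or highest library that stood far from the other 5 of its group was looked for in 44 groups of 6 (28 in FROZ and 16 in FFPE), and 4 were found, where chance gives about 1 in 20 groups. The ratio of the gap to the range is given, and was above Dixon's 95% limit for 6 values in these 4. Slc22a5 in FROZ at 198 mg/kg-d had its lowest value in mouse 49, listed at 0 reads with a log2(CPM + 1) of 3.88e-13, compared with 0.81 in the next mouse (ratio 0.793). Slco1b2 in FROZ at 313 mg/kg-d had its highest value in mouse 76, 9.16 on the log2 scale compared with 8.90 (ratio 0.685). In FFPE at 198 mg/kg-d Slco1b2 had 0.33, from 1 read, in mouse 53 compared with 6.14 in the next (ratio 0.757), and Slco2a1 was at 0.0 in mouse 54 compared with 4.51 (ratio 0.706). At 198 mg/kg-d without mouse 53 the FFPE difference of Slco1b2 from controls was 0.73 in place of -0.39, and neither was called.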

How the results depend on the processing

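No called result reversed. Of the counts of carriers called, those at 427 mg/kg-d in FROZ were 5 to 6 over 31 settings, and the others that moved beyond 1.5 times did so as follows. With an offset of 0.1 the DEGs from 198 to 313 mg/kg-d were 2 in place of 1, and from 313 to 427 mg/kg-d 1 gene was called in place of 2, with 1 DEG in place of 0. With an offset of 0.0001 the latter counts were again 1 and 1, and Slc22a5 was no longer called in any comparison. Median-ratio scaling gave 4 DEGs at 313 mg/kg-d against controls in place of 2, and the filter at 5 CPM, which removes Slc22a5, gave 1 there, 0 DEGs from 198 to 313 mg/kg-d and 1 call from 313 to 427 mg/kg-d. Array weights gave 2 DEGs from 198 to 313 mg/kg-d, 1 DEG from 313 to 427 mg/kg-d, 1 call and 1 DEG in FFPE at 427 mg/kg-d, and 2 calls in the FFPE slope. Except for the filter, the cause was not tested. Leaving out single mice gave 0 to 1 calls in FROZ at 198 mg/kg-d, 2 to 4 DEGs at 313 mg/kg-d, 3 to 6 calls and 1 to 2 DEGs from 198 to 313 mg/kg-d, and 0 to 1 DEGs from 313 to 427 mg/kg-d. In the FROZ step from 198 to 313 mg/kg-d the prior without trend lost Slco1b2 (FDR = 0.0516) and Slco2b1 (0.0583), and the fit of only those groups lost Slco1a4 (0.0538) and Slco2b1 (0.0710).

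The replicate block (the animal) in the FFPE minus FROZ comparison changed no call: 0 carriers were called with it and 0 without it at each dose. FFPE libraries held 1.83 to 6.02 M reads, and nothing can be said of the 3 carriers not listed there.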
